A study of Mus musculus with 9 samples.

Results

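The genes described are 10 that control the step from dividing myoblast to arrested muscle cell. They are the D-type cyclins Ccnd1, Ccnd2 and Ccnd3, the inhibitors Cdkn1a, Cdkn1b, Cdkn1c and Cdkn2c, the kinase Cdk4, the pocket protein Rb1 and the growth arrest gene Gadd45a. MyoD1 peaks were assigned to a gene when they overlapped its body or the 10 kb on either side (build mm10, GENCODE M21). This took 134 of 116126 peaks over 6 libraries. They merged into 38 of 58309 regions, at 10 of 21951 protein-coding genes.

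All 6 libraries came from 1 clone of the mouse myoblast line C2C12, which carried a 3xFlag-Halo tag at the N-terminus of both endogenous Myod1 alleles. The clone also held a transposon with 3xFlag-Halo-MyoD1 under the TRE3G promoter, which doxycycline (dox) switches on, so untreated and treated cells shared both the tagged locus and the transgene. All cultures went into differentiation medium and were collected after 6 h, as 3 untreated biological replicates (no dox) and 3 that received 1 µg/mL dox at the same time (+dox). Binding was mapped by CUT and RUN with anti-Flag M2, which cuts out the DNA around the tagged protein, so endogenous and induced MyoD1 cannot be told apart. The 3 wild-type libraries were not analysed here, so no background from untagged cells stands beside the values. Myod1 abundance was not measured in these lists.

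D-type cyclins bind Cdk4 or Cdk6, and the active kinase phosphorylates Rb1, which then releases E2F factors that drive DNA replication genes. Cdkn1a, Cdkn1b and Cdkn1c belong to the Cip/Kip family, which binds cyclin and kinase together. Cdkn2c belongs to the INK4 family, which binds Cdk4 and Cdk6 alone. Differentiating muscle cells leave the cell cycle for good. Cdkn1a and Ccnd3 are known to increase in that step while Ccnd1 falls, and MyoD1, a basic helix-loop-helix factor that binds E-boxes (CANNTG, above all CAGCTG), is known to take part in it.

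Each deposited peak has a total and a maximum signal in CPM, coverage scaled to library size. Height is given below as the percentile of a peak's maximum within its own list, where 100 is the highest peak, and, for the regions called in all libraries, as the maximum in CPM. The lists held 9389 to 13877 peaks in 5 libraries and 53661 in +dox replicate 3. The depths, read from the step between signal values, were 2868000 to 4667000 alignments in those 5 libraries and 8030000 in +dox replicate 3. A given maximum therefore stands at a higher percentile in the list of +dox replicate 3, which holds many low peaks, and low maxima share percentiles because they count few alignments.

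The windows below, 300 bases centred on the place of the maximum, are printed because they hold the highest or most often called peaks of the cyclins and inhibitors and the E-boxes of Rb1 and Cdk4. The sequence is that of GRCm38 on the plus strand. Capitals mark 3 motifs, each searched on both strands. The first is the E-box CAGCTG, which is its own reverse complement. The second is another E-box form, written CACCTG on one strand. Both are forms of the general E-box. The third is the site of AP-1 factors, a family of leucine zipper proteins, with the letters TGANTCA.
Ccnd3 region 9, chr17:47521776-47522075: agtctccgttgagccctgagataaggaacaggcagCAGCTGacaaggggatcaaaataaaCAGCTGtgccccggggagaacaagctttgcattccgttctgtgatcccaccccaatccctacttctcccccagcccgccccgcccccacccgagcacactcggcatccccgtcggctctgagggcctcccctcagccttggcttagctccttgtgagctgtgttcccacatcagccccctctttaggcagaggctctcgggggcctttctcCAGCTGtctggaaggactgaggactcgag
Ccnd3 region 14, chr17:47595476-47595775: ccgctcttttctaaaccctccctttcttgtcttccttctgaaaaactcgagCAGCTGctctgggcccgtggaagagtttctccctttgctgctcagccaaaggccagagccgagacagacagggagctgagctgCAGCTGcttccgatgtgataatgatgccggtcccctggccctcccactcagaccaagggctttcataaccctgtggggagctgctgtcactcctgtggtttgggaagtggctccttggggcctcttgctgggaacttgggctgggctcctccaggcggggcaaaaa
Ccnd3 region 6, chr17:47511226-47511525: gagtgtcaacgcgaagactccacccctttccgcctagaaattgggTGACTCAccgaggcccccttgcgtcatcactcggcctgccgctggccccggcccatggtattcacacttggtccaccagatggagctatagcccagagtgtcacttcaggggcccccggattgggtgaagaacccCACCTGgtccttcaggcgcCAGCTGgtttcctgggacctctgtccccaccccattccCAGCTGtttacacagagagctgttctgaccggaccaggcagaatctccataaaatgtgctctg
Ccnd1 region 1, chr7:144928676-144928975: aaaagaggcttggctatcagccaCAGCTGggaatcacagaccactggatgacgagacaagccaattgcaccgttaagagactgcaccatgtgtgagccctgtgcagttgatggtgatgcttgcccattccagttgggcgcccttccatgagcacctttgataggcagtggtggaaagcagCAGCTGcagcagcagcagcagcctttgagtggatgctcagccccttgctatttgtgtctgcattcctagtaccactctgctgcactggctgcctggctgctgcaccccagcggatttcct
Cdkn1a region 1, chr17:29095376-29095675: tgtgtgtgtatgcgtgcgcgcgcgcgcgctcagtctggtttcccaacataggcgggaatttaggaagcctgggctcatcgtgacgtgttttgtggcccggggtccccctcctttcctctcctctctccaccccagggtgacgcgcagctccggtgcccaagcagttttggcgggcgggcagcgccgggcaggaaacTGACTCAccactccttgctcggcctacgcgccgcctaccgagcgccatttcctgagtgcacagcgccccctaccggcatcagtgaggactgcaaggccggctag
Cdkn1b region 2, chr6:134928526-134928825: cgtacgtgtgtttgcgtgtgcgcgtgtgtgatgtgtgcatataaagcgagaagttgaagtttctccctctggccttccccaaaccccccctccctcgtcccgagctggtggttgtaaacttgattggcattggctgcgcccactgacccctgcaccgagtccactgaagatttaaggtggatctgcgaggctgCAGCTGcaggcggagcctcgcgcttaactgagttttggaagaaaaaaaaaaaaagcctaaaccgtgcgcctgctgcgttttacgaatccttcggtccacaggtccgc
Rb1 region 1, chr14:73325101-73325400: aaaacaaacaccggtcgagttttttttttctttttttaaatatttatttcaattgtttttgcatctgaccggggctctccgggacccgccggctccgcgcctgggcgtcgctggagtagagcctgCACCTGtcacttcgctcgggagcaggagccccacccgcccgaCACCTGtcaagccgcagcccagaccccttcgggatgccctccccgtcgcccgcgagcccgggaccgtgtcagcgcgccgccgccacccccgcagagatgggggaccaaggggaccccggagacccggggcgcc
Cdk4 region 2, chr10:127063571-127063600: gcgcctctctggCAGCTGgtcacatggtga

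The 30 bases shown for Cdk4 lie at the start of its first exon, around the CAGCTG closest to the maximum. The Ccnd3 region 9 window holds 3 CAGCTG and its maximum lies between them, with the closest 87 bp away. The Ccnd3 region 14 and region 6 windows and the Ccnd1 region 1 window hold 2 each, the closest at 13, 52 and 33 bp. The Cdkn1b window holds 1, at 46 bp. The Cdkn1a window holds no E-box of any form (CANNTG) and 1 AP-1 site. This window covers only the intron peak of its region. Over its whole 3800 bp, Cdkn1a region 1 holds 1 CAGCTG, 5 E-boxes of the second form and 17 of any form. The Rb1 window holds the second E-box form at 2 places and the first form at none. CAGCTG was present in 37.0% of the windows of 58308 regions on the assembled chromosomes and in 55.5% of the 4838 regions called in all 6 libraries. Among the 38 regions at the 10 loci it was present in 12, and in 6 of the 9 called in all 6 libraries (4 of 5 at cyclins, 1 of 2 at inhibitors). The AP-1 site was present in 2 of these 9 windows (Ccnd3 region 6 and Cdkn1a), against 19.2% of the windows of regions called in every library and 17.5% of all windows. The second E-box form was present in 24.3% and 28.7% of these windows, and any E-box in 84.0% and 84.9%, against 7 of the 9.

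Calls at the 10 loci were unevenly spread. Of the 38 regions, 9 were called in all 6 libraries, where 8.3% of all regions were. Ccnd3 had 3 of them, Ccnd1 had 2, and Cdkn1a, Cdkn1b, Gadd45a and Cdk4 had 1 each. Ccnd2, Cdkn1c, Cdkn2c and Rb1 had none. At the level of genes, 6 of 10 had a region called in every library, against 21.7% of protein-coding genes, and 8 of 10 had one in at least 2 of 3 no dox libraries (the no dox consensus), against 35.7%. The windows of Ccnd3 and Rb1 are long, 115 and 162 kb, and longer windows have more room for a region. A further 15 of the 38 regions were called in +dox replicate 3 alone, 11 of them at Ccnd3, where 59.2% of all regions were.

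**Figure D1:**
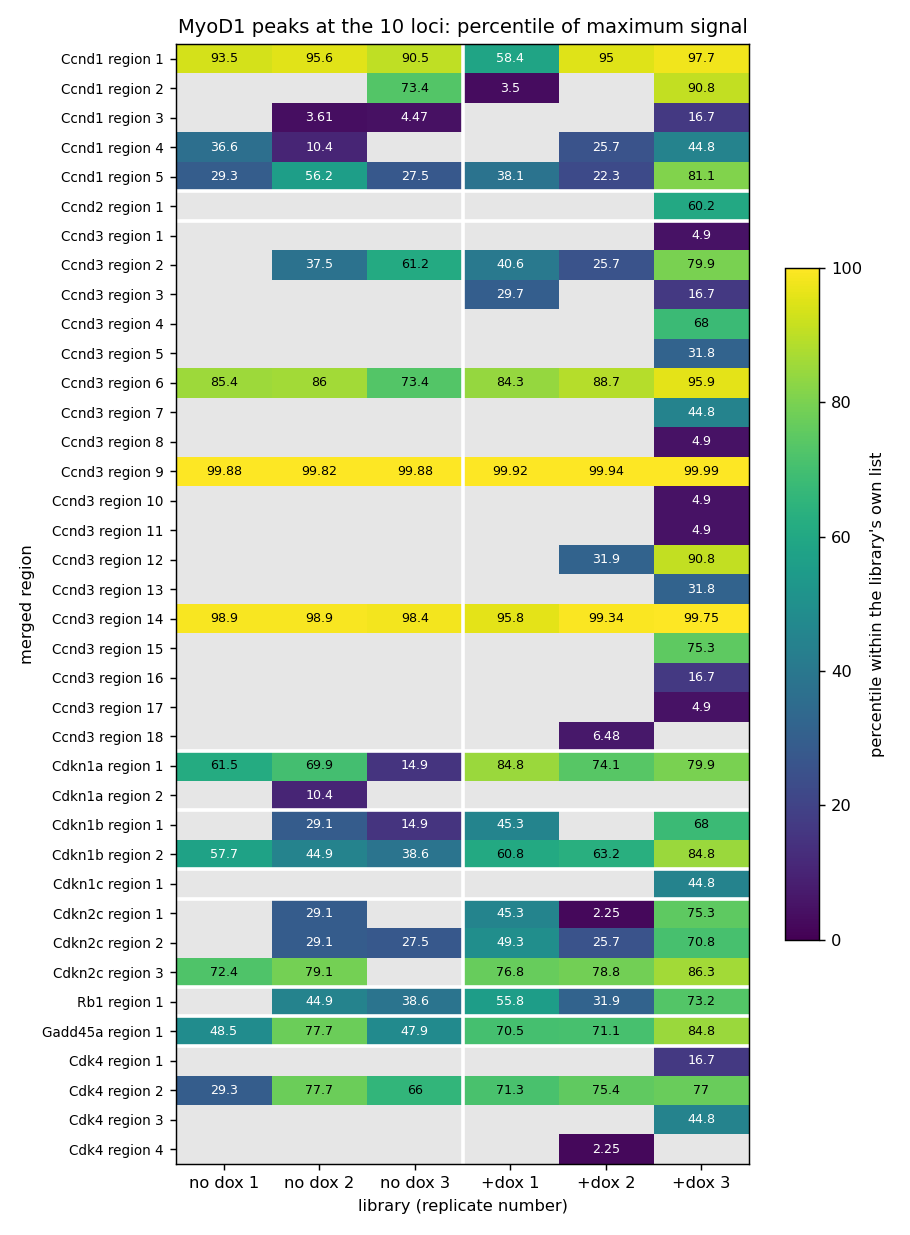
Heat map of the percentile of maximum signal within each library's own list (colour, 0 to 100, value printed in each cell) for the 38 merged regions at the 10 loci (rows) in 3 no dox and 3 +dox libraries (columns). Grey cells are regions without a peak in that library. Ccnd3 regions 9 and 14 stand above 95 in every library, and most regions seen in 1 library are in +dox replicate 3.

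Ccnd3, the D-type cyclin that muscle cells keep when they differentiate, had the highest MyoD1 peak of the 10 loci in every library. Its region 9 (chr17:47521051-47524200) lies in an intron, with the maximum 16875 bp from the first start of the gene. The percentile was 99.88, 99.82 and 99.88 in no dox replicates 1, 2 and 3 and 99.92, 99.94 and 99.99 in +dox replicates 1, 2 and 3. The maximum reached 128, 152 and 72.0 CPM without dox and 348, 249 and 162 CPM with dox. It rested on 336 to 1302 alignments, more than any other region of these genes. A second, lower peak downstream was called on its own in no dox replicates 1 and 2 and +dox replicates 1 and 2, at percentiles of 29.3, 44.9, 60.8 and 63.2. No dox replicate 3 had no call there, and in +dox replicate 3 a single interval of 3150 bp ran across both places. The whole region holds 8 CAGCTG.

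Ccnd3 region 14 (chr17:47593101-47596900) covers the 3′ part of the gene, where shorter coding transcripts start. Its main maximum lay 90575 bp from the first start, in an exon annotated to a noncoding transcript of Ccnd3. The percentiles were 98.9, 98.9 and 98.4 without dox and 95.8, 99.3 and 99.7 with dox, so the lowest and the highest value were both with dox. The maxima were 58.6, 59.2 and 27.0 CPM without dox and 61.0, 113 and 69.7 CPM with dox. A lower peak upstream, over starts of the shorter transcripts, was called apart at percentiles of 64.6 and 66.0 in no dox replicates 1 and 3 and 78.7 and 69.4 in +dox replicates 1 and 2. In the other two libraries a single interval covered both places.

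Region 6 of Ccnd3 (chr17:47511051-47512550), in an intron 6325 bp from the first start, was the third called in every library. Its percentiles were 85.4, 86.0 and 73.4 without dox and 84.3, 88.7 and 95.9 with dox. The first start of Ccnd3 itself (region 3) was called in +dox replicates 1 and 3 alone, at percentiles of 29.7 and 16.7. Region 2 is at the start of the neighbouring gene Taf8 and was called in 5 libraries at 25.7 to 79.9. Region 12, 37125 bp into the gene, had peaks in +dox replicates 2 and 3 at percentiles of 31.9 and 90.8. The other 12 regions at Ccnd3 had 1 library each, 11 of them +dox replicate 3 and 1 (region 18) +dox replicate 2.

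**Figure D2:**
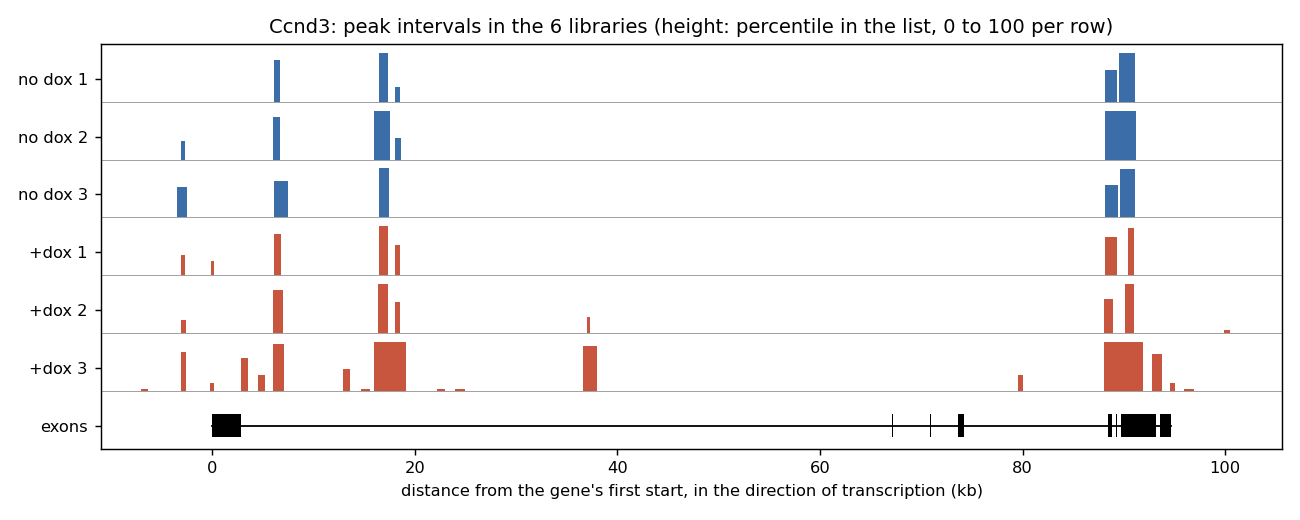
Map of the peak intervals at Ccnd3 in the 6 libraries (rows, no dox in blue, +dox in red) against distance in kb from the gene's first start. The height of each block is the percentile of its maximum within that library's list, and black boxes are exons of all annotated transcripts. Blocks at regions 6, 9 and 14 (6325, 16875 and 90575 bp) are present in every row, and +dox replicate 3 has the most further blocks.

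Ccnd1, the cyclin of proliferating myoblasts, had the next highest peak in 5 of 6 libraries. The maximum of its region 1 (chr7:144927351-144929950) lies past the 3′ end of Ccnd1, in an intron of the neighbouring gene LTO1. The percentiles were 93.5, 95.6 and 90.5 without dox and 58.4, 95.0 and 97.7 with dox. The maxima were 21.9, 26.6 and 10.3 CPM without dox and 10.5, 40.6 and 22.9 CPM with dox. The low percentile was that of +dox replicate 1, the shallowest library, where the maximum rested on 30 alignments against 48 to 184 in the others. Its percentile among the regions called in every library was low as well, 28.2 against 76.6 to 88.2 in the others. Whether depth plays a part was not tested. Region 5, with its maximum at -1601 bp from the first start, was called in every library at 27.5 to 56.2 without dox and 22.3 to 81.1 with dox. Region 4, around the start of Ccnd1, was called in 2 of 3 libraries of each group at 10.4 to 44.8. Region 3, in an intron, was in the no dox consensus and not in the +dox one, the single region of that kind at the 10 loci (1.65% of all regions), at percentiles of 3.61 and 4.47 in no dox replicates 2 and 3 and 16.7 in +dox replicate 3. Region 2, in an intron, had peaks in no dox replicate 3 and +dox replicates 1 and 3, at 73.4, 3.50 and 90.8.

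Ccnd2 had 1 region, at its start, called in +dox replicate 3 alone with a maximum of 1.99 CPM, a percentile of 60.2 and 16 alignments. The other 5 lists had no peak within 10 kb of the gene. Binding at Ccnd2 was not detectable in them at these depths and calling settings.

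Cdkn1a, the Cip/Kip inhibitor that rises in differentiating muscle cells, had 1 region called in every library (chr17:29092501-29096300). Its main peaks lay at 2 places, over a later start of the gene (2750 bp from the first start in no dox replicate 1) and in an intron (4550 bp). The highest percentile was 61.5, 69.9 and 14.9 in no dox replicates 1, 2 and 3 and 84.8, 74.1 and 79.9 in +dox replicates 1, 2 and 3. On this scale the +dox libraries stood above all no dox libraries, which also differed widely among themselves. The groups overlapped in CPM, with +dox replicate 3 at 3.98 below no dox replicates 1 and 2, and in percentile among the regions called in every library. In no dox replicate 3 the interval was 3600 bp wide with a maximum of 1.71 CPM on 8 alignments. At the start the peaks reached 6.52 and 4.97 CPM in no dox replicates 1 and 2, and 16.0, 6.67 and 3.98 CPM in the +dox replicates. In the intron they reached 5.12 and 6.77 CPM without dox, and 25.8, 12.8 and 3.74 CPM with dox. The intron place was the higher one in no dox replicate 2 and +dox replicates 1 and 2. Region 2 of Cdkn1a, also in an intron, was called in no dox replicate 2 alone at 10.4.

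Cdkn1b, the second Cip/Kip gene, had a region at its own start (region 1) in 2 of 3 libraries of each group, at 29.1 and 14.9 in no dox replicates 2 and 3 and 45.3 and 68.0 in +dox replicates 1 and 3. The region called in every library (region 2, chr6:134927851-134929550) has its maximum 8275 bp from the Cdkn1b start and at -416 bp from the start of Lockd, a long noncoding RNA gene. Its percentiles were 57.7, 44.9 and 38.6 without dox and 60.8, 63.2 and 84.8 with dox, and the groups did not overlap. The maxima were 6.05, 4.06 and 2.57 CPM without dox and 11.2, 9.45 and 5.23 CPM with dox, and these ranges did overlap.

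Cdkn1c, the third Cip/Kip gene and an imprinted one, had 1 region, at the start of a shorter transcript, in +dox replicate 3 alone (percentile 44.8, 12 alignments). Cdkn2c, the INK4 member, had 3 regions. Region 2, at its own start, was called in no dox replicates 2 and 3 at 29.1 and 27.5 and in the +dox replicates at 49.3, 25.7 and 70.8. The highest, region 3 (chr4:109676101-109677350), is at the start of the neighbouring gene Faf1, at 72.4 and 79.1 in no dox replicates 1 and 2 and at 76.8, 78.8 and 86.3 with dox. Region 1, in an exon of the noncoding gene 9630013D21Rik, was called in no dox replicate 2 at 29.1 and with dox at 45.3, 2.25 and 75.3.

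**Figure D3:**
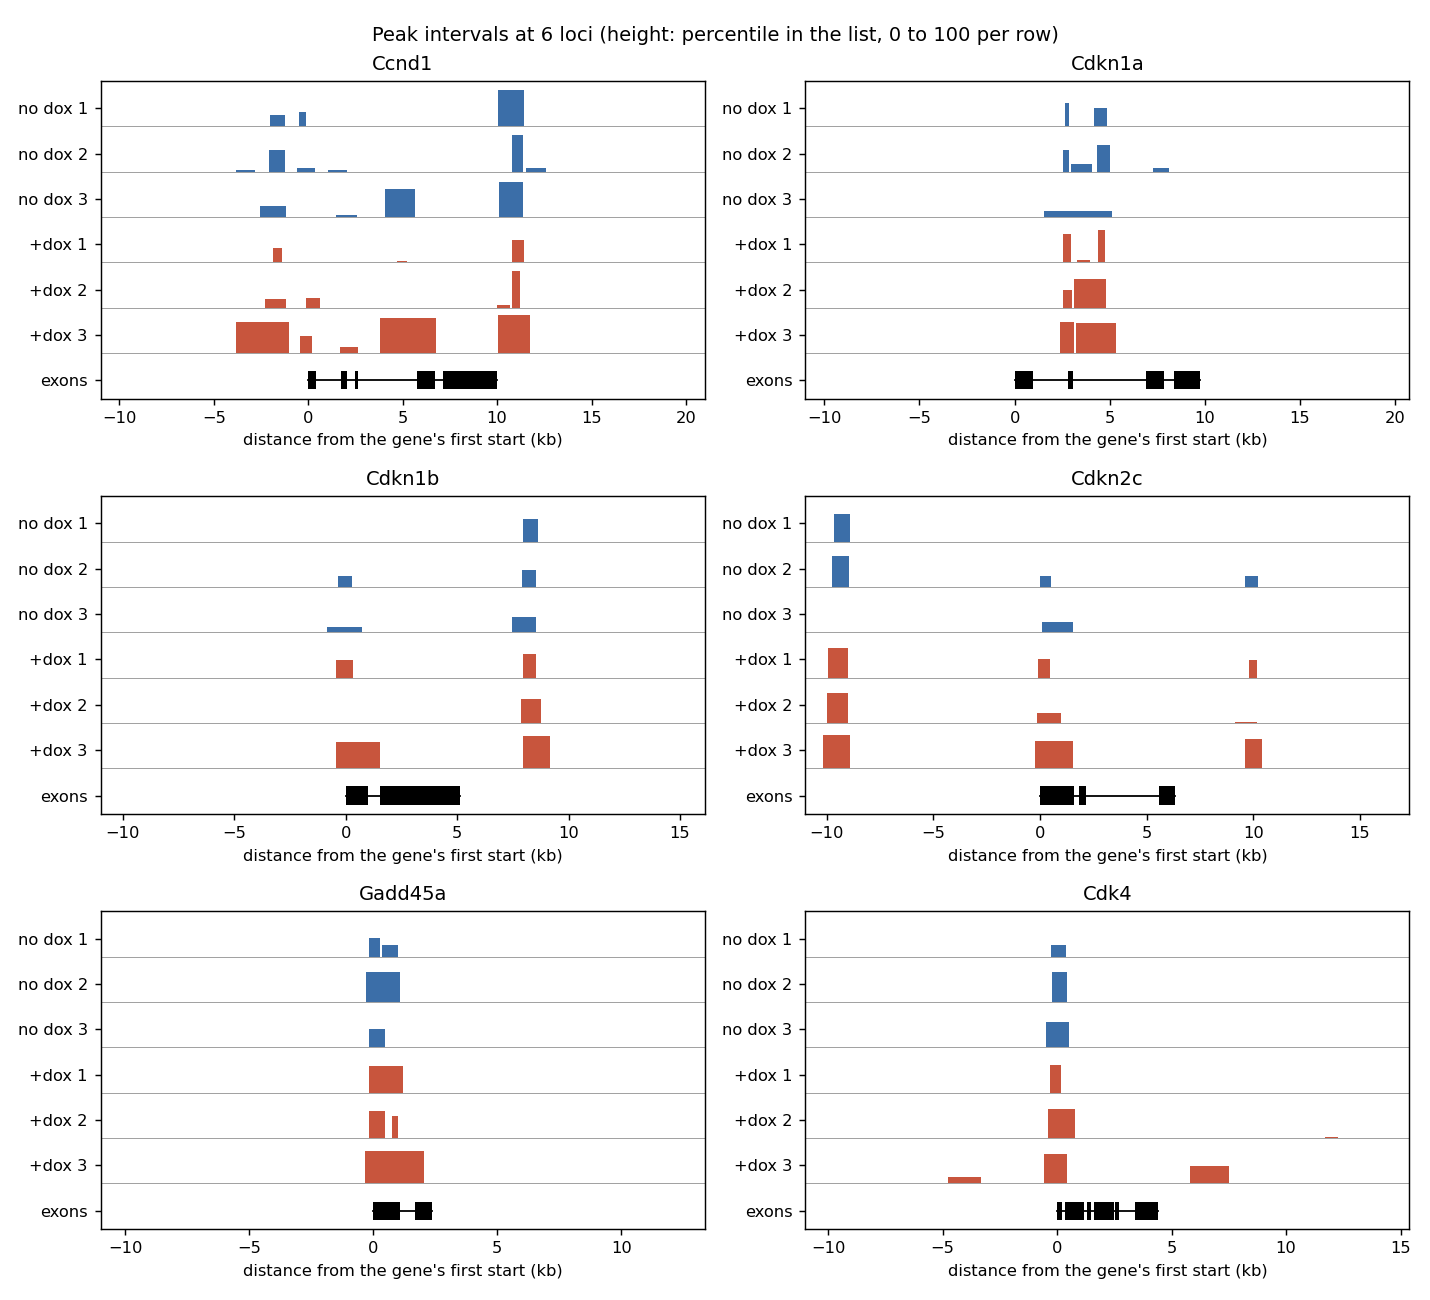
Maps of the peak intervals at Ccnd1, Cdkn1a, Cdkn1b, Cdkn2c, Gadd45a and Cdk4 in the 6 libraries (rows, no dox in blue, +dox in red) against distance in kb from each gene's first start, with block height for the percentile in the list and black boxes for exons. At Gadd45a and Cdk4 the blocks present in every row lie at the start, and at Ccnd1 and Cdkn1b the highest ones lie past the end of the gene.

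Rb1, the target of the cyclin D kinases, had a single region in a 162 kb window (chr14:73324801-73326700), in an intron 390 bp from the nearest start of the gene. It was called in no dox replicates 2 and 3 at percentiles of 44.9 and 38.6 and in the +dox replicates at 55.8, 31.9 and 73.2. Gadd45a, a stress-induced gene that can arrest the cell cycle, was called at its start in every library (chr6:67035401-67037800). The percentiles were 48.5, 77.7 and 47.9 without dox and 70.5, 71.1 and 84.8 with dox, and no dox replicate 2 lay above +dox replicates 1 and 2. Its maxima were 5.12, 8.58 and 3.00 CPM without dox and 14.6, 11.7 and 5.23 CPM with dox. Cdk4, the kinase partner of the D-type cyclins, was also called at its start in every library (region 2, chr10:127062951-127064300). Its percentiles were 29.3, 77.7 and 66.0 without dox and 71.3, 75.4 and 77.0 with dox, so the groups overlapped and no dox replicate 1 was the low one. Its maxima were 3.72, 8.58 and 4.29 CPM without dox and 15.0, 13.3 and 3.49 CPM with dox, the lowest being in +dox replicate 3. The other 3 regions of Cdk4 had 1 library each, at 2.25 to 44.8.

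A peak over the start of a coding transcript was present in all 6 libraries at 4 of the 10 genes (Ccnd3 at its later starts, Cdkn1a, Gadd45a and Cdk4), against 10.5% of protein-coding genes. Rb1 had one in 5 libraries, Cdkn2c and Cdkn1b in 4, Ccnd1 in 3, and Ccnd2 and Cdkn1c in 1.

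The cyclins were then set against the inhibitors, library by library, by the highest peak of each locus, with a locus without a peak counted as 0. This is a description and was not tested, since the genes were chosen with results of these data known. The mean over the 3 cyclin loci minus the mean over the 4 inhibitor loci was 16.6, 16.6 and 43.2 percentile points in no dox replicates 1, 2 and 3 and -2.83, 10.94 and 12.03 in the +dox replicates. The mean of the untreated libraries was 25.5 ± 15.4 and that of the treated ones 6.71 ± 8.28 (SD, 3 libraries each). The inhibitor mean went from 38.9 ± 16.1 (no dox) to 61.2 ± 11.1 (+dox) and the cyclin mean from 64.3 ± 0.846 to 67.9 ± 16.8. By library the inhibitor means were 47.9, 48.5 and 20.2 (no dox) and 55.6, 54.0 and 74.0 (+dox). The cyclin means were 64.5, 65.1 and 63.4 (no dox) and 52.8, 65.0 and 86.0 (+dox). Ccnd2 and Cdkn1c had a peak in +dox replicate 3 alone. Ccnd3 stood at 99.8 or more throughout and Ccnd1 at 90.5 to 95.6 without dox. Both had little room to rise, so the changes in mean cannot be compared. Regions called in every library had a median percentile difference of 6.40 (+dox minus no dox). The percentiles of the loci move with list length. With all lists cut to 9389 peaks, also added after the values were seen, the differences were 34.5 ± 21.5 (no dox) and 23.8 ± 27.6 (+dox). By library these ran from 16.6 to 58.4 (no dox) and from -0.99 to 53.5 (+dox). A locus whose peak was cut counted as 0 there, among them Cdkn1a in both replicate 3 libraries, so list length still enters these values. With Ccnd3 left out, added in the same way, the differences were 7.73 (no dox) and -9.31 (+dox). Ccnd3 stood above every inhibitor in all 6 libraries and Ccnd1 in 5 of 6, all but +dox replicate 1, while Ccnd2 was below 3 of the 4 inhibitors throughout. The cyclin windows span 192 kb with 24 regions and the inhibitor windows 104 kb with 8.

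**Figure D4:**
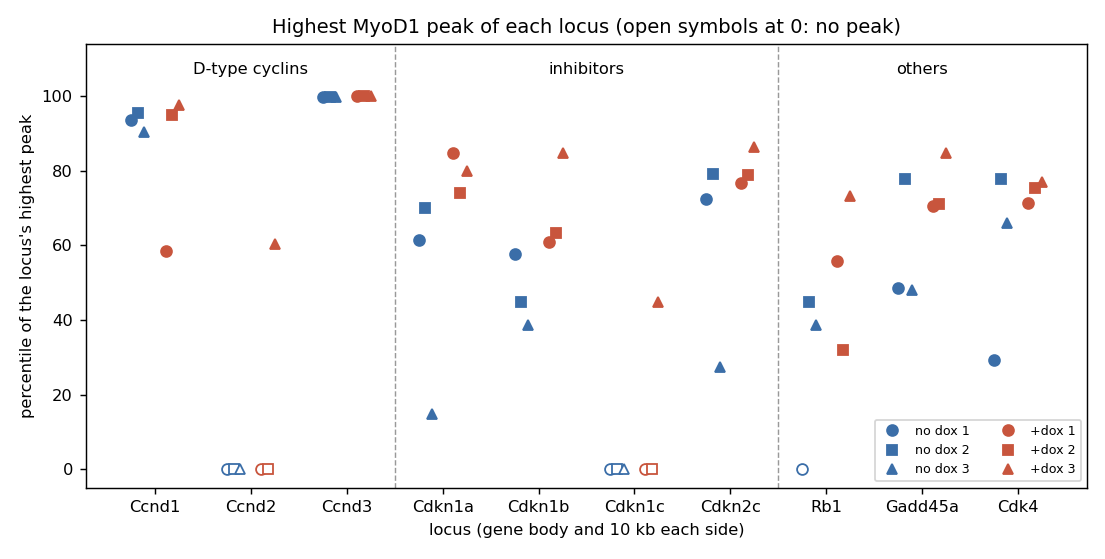
Percentile within the list of the highest peak of each locus (points, 1 per library, no dox in blue and +dox in red, symbol by replicate number) for the cyclins, inhibitors and other genes. Open symbols at 0 are libraries without a peak. Ccnd3 is near 100 in every library, Ccnd2 and Cdkn1c have a single peak each, and the inhibitor values range from 14.9 to 86.3 where a peak was called.

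Untreated and treated cells were compared first by calls. The no dox consensus held 16 of the 38 regions (16.2% of all regions are in it) and the +dox consensus 19 (23.7%). The +dox consensus alone held 4 (9.14%), which were Ccnd1 region 2, Ccnd3 regions 3 and 12 and Cdkn2c region 1. All 4 had a peak in +dox replicate 3, and without that library 1 of this kind was left. The share over all regions without that library was not taken, and 59.2% of all regions were called in it alone. No region at the 10 loci was called in 3 +dox and 0 no dox libraries, where 1.09% of all regions were. Untreated lists 1, 2 and 3 held 15, 23 and 16 peaks at the loci and treated lists 21, 23 and 36, which is 0.160%, 0.166% and 0.119% of the lists against 0.168%, 0.173% and 0.0671%.

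Heights at the 9 regions called in every library were compared next. By percentile, the +dox libraries stood above all no dox libraries at 3 of 9, against 23.7% of 4838 such regions over the genome, and below at 0, against 0.0413%. The 3 were Ccnd3 region 9 (a difference of 0.088 points), Cdkn1a region 1 (30.9 points) and Cdkn1b region 2 (22.6 points). Each had an exact two-sided permutation p of 0.1, the smallest that 3 against 3 libraries allow, and an adjusted p of 0.421 over 4838 regions. When the percentile was taken among these 4838 regions, which removes the effect of list length, the groups did not overlap at 0 of 9, against 3.56% higher and 4.44% lower over the genome. On that scale Cdkn1a region 1 stood at 38.7, 32.4 and 2.76 without dox and 65.3, 42.0 and 11.3 with dox.

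The mean log2 maximum in CPM was higher with dox at all 9 regions, and the shift was general across the genome. The median shift of the 4838 regions was 0.91 on the log2 scale and that of the 9 regions 0.92. The shifts ran from 0.23 ± 0.61 (SE, n = 3 and 3) at Ccnd1 region 1 to 1.37 ± 0.68 at Cdkn1a region 1. The groups did not overlap in CPM at the 3 Ccnd3 regions, against 27.5% of regions higher and 0% lower with dox. In limma on log2 maximum signal, 0 of 9 and 0 of 4838 regions passed an adjusted p of 0.05 (0% higher), with the lowest adjusted p over all regions at 0.208 and 1158 regions at an unadjusted p under 0.05. Cdkn1a region 1 and Ccnd3 region 6 came lowest of the 9, both at an adjusted p of 0.210.

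Same-numbered libraries of the groups deviated together, so the limma fit was also made with the replicate number as a block. The 3 Ccnd3 regions, Cdkn1a region 1 and Cdkn1b region 2 then passed, 5 of 9, against 52% of all 4838 regions, a share near that of the members. Adjusted p-values in this limma fit were 0.00061 at Ccnd3 region 9, 0.0058 at Cdkn1a region 1, 0.0085 at Ccnd3 region 6, 0.025 at Ccnd3 region 14 and 0.034 at Cdkn1b region 2. After each library was centred on its own median over the 4838 regions, 0 of 9 passed in the blocked limma fit and 0% of all regions were higher, with 627 regions at an unadjusted p under 0.05 and 1 called lower. The centred shifts were 0.45 ± 0.58 at Cdkn1a, 0.24 ± 0.39, 0.18 ± 0.32 and -0.14 ± 0.39 at Ccnd3 regions 6, 9 and 14, 0.12 ± 0.40 at Cdkn1b, -0.0052 ± 0.42 at Gadd45a, -0.14 ± 0.50 at Cdk4, and -0.41 ± 0.35 and -0.69 ± 0.55 at Ccnd1 regions 5 and 1 (SE, unblocked limma fit). All 9 had an adjusted p of at least 0.984 in that limma fit. Without +dox replicate 3, the deepest library, Cdkn1a, Cdkn1b, Gadd45a and Cdk4 passed in CPM, 4 of 9, as did 39.4% of all regions as higher. No spike-in was among the stated steps, so CPM cannot compare amounts of bound MyoD1 between groups.

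**Figure D5:**
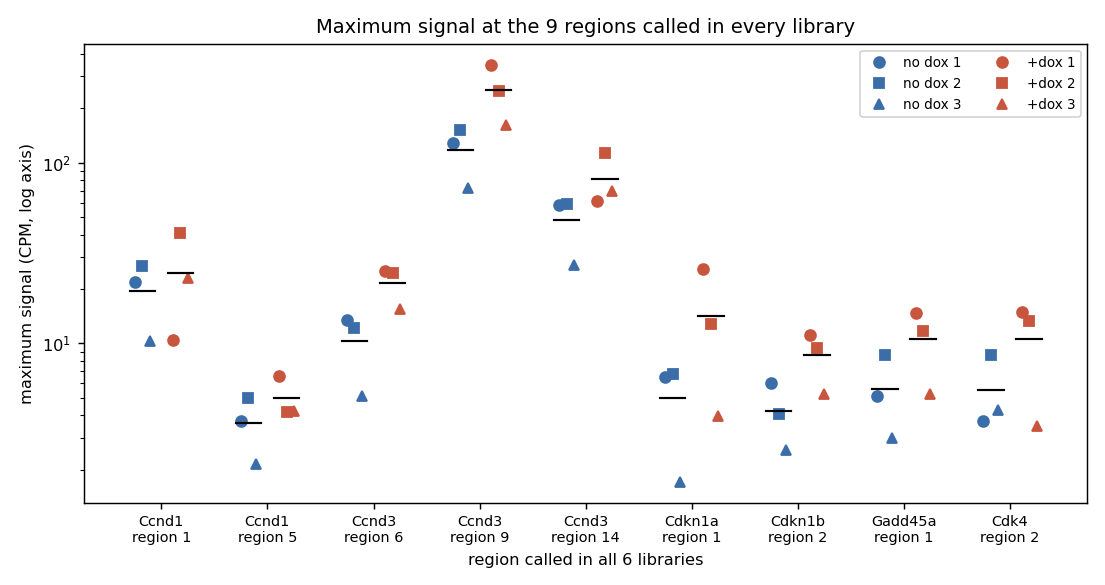
Maximum signal in CPM (log axis) at the 9 regions called in every library, 1 point per library (no dox in blue, +dox in red, symbol by replicate number) with the group mean of 3 as a black line. The +dox mean is above the no dox mean at all 9, and the points of the groups are apart at the 3 Ccnd3 regions.

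The other genes of the pathway were taken from a list of 29 chosen by function. Of these, 27 had at least 1 region (93.1%, against 71.8% of protein-coding genes), 18 had one in the no dox consensus (62.1% against 35.7%), 26 in the +dox consensus (89.7% against 48.5%) and 13 in all 6 libraries (44.8% against 21.7%). Over the 13, the mean percentile of the highest shared region ranged from 44.1 to 98.6 with a median of 80.3, where the median over all genes with such a region was 77.2 and that over the 6 such genes described above 66.4. At the upper end, the E2F factors E2f3 and E2f2 had a highest shared region at mean percentiles of 98.6 and 96.4. Cdk2, the kinase of cyclins E and A, was at 96.8 and Myc, which drives cell-cycle entry, at 93.8. In the middle were the pocket protein Rbl2 at 85.6, Gadd45g at 83.8, E2f8 at 80.3, E2f1 at 70.4 and the INK4 gene Cdkn2d at 68.2. Whether height goes with the role of a gene was not tested. At the lower end were E2f4, also an E2F factor, at 44.1, the antiproliferative genes Btg1 and Btg2 at 51.1 and 60.7, and Ccne1, a cyclin E gene, at 55.3. Cdk6, the other partner of the D-type cyclins, and E2f7, another E2F factor, each had a region in 3 +dox and 0 no dox libraries, as did 3.76% of protein-coding genes. The INK4 genes Cdkn2a and Cdkn2b had no region in any library.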

How the data were processed

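CUT and RUN was performed on 6 libraries, 3 no dox and 3 +dox, and the authors' peak lists were used. Per the methods, the authors ran nf-core/cutandrun against mm10, removed blacklisted regions, scaled coverage to CPM and called peaks in each library with SEACR in relaxed mode. Settings for a control library or a threshold are not given in the sources used here. The deposited columns are total and maximum signal (CPM coverage on a 50 bp grid). No pooled values and no raw counts were used.

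Peaks of the 6 lists were merged where they overlapped or touched. A region belongs to a gene by 1 bp of overlap with its body and 10 kb each side, and to a consensus with peaks in 2 of 3 libraries of a group. Where a list had several peaks in a region, the highest counted. Percentiles average ties. The place of the maximum is the library maximum closest to the others. Motifs were searched on both strands in 300 bp around it. The members, the pathway list and the tests were chosen with earlier results of these data known. The gene's region named first was the one called in most libraries, then the highest, and regions called in 3 libraries of one group and 0 of the other were to be named. Further regions were named after their values were seen.

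Percentiles of the groups were tested by exact two-sided permutation, and log2 maximum signal (no pseudocount, since every value is above 0) with limma 3.58.1 in R 4.3.3, with Benjamini-Hochberg adjustment over the 4838 shared regions. Values measure the spread between biological replicates. Pairing was checked by correlating deviations from the group means between same-numbered libraries over these regions, which gave 0.49, 0.27 and 0.63 for replicates 1, 2 and 3. The labels name no shared day or batch. The merging and limma steps were tested on simulated data. The limma simulation had independent noise and no shift common to a whole library, so it does not show how the fits handle such a shift. Coordinates are mm10, from 1; no list ran past a GRCm38 chromosome end. Sequence is from the GRCm38 RefSeq assembly.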

Additional observations from a re-analysis of the deposited data

How the results depend on the processing

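Counts of regions moved with the flank, the libraries and the list length, and shares over all regions were not taken for these settings. With 3 of 3 libraries asked for, the no dox consensus held 9 member regions. Lists cut to the length of the shortest gave 12 +dox regions, with 1 in the +dox consensus alone. A flank of 50 kb gave 28 no dox, 34 +dox and 9 +dox alone regions. Leaving out 1 library at a time gave 9 to 17 no dox regions, 15 to 19 +dox regions and 1 to 10 in the +dox consensus alone. Merging within each group, placing peaks by their maximum and a flank of 0 kb left all 3 counts within 1.5 times.

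Cyclins minus inhibitors moved to 43.8 (no dox) and 22.7 (+dox) with a flank of 0 kb. At 0 kb Ccnd1 region 1 still counted, since its merged interval reached the gene's end, while its maximum lies past that end. Cdkn1b region 2 and Cdkn2c region 3 no longer counted, so these values are not those of gene bodies alone. With 50 kb the +dox value moved to 27.2, and the no dox value, by less than its SD, to 35.1. The no dox value moved to 47.1 with the median over loci and to 44.7 with loci without a peak left out. With 1 no dox library left out it was 16.6 to 29.9, the lowest without no dox replicate 3. Lists of equal length, where a locus whose peak was cut counted as 0, moved the +dox value to 23.8. The +dox value also moved, by less than its SD, to 2.24 with total signal, 14.2 with loci without a peak left out, 10.4 with the median over loci, and 4.05 to 11.5 with 1 library left out, the highest without +dox replicate 1. Without Ccnd3 it was 7.73 (no dox) and reversed to -9.31 (+dox).

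Among member regions, the percentile groups did not overlap at 1 with lists of equal length and at 0 among shared regions. The groups did not overlap at 3 to 5 with 1 library left out, and at 3 with the replicate block. Shares over all shared regions were not taken for equal lists, for 1 library left out or for the block. Fewer libraries also make it easier for groups not to overlap, so these counts show no trait of the loci. At equal length, Cdkn1a region 1, Cdk4 region 2 and Ccnd1 region 5 no longer had a peak in every list. These regions could not be compared there and were left out of that count. Differences turned sign at Ccnd1 region 1 without +dox replicate 1 (3.16; range with 1 library left out -16.5 to 3.16), Ccnd3 region 14 without it (0.83; -1.15 to 0.83), Ccnd1 region 5 without +dox replicate 3 (-7.44; -7.44 to 21.9) and among shared regions (-1.86), and Gadd45a with lists of equal length (-2.71).

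In limma, the replicate block called 2523 of 4838 regions, the block with centring 1, and replicates 1 and 2 alone 1719, with 5, 0 and 3 at the 10 loci. Leaving out 1 library gave 0 to 1911 calls and 0 to 4 at the loci. Centring turned the shift negative at Ccnd1 region 1 (-0.69) and region 5 (-0.41), Ccnd3 region 14 (-0.14), Cdk4 (-0.14) and Gadd45a (-0.0052), with the block and without it. Ccnd1 region 1 also turned without no dox replicate 3 (-0.18), without +dox replicate 2 (-0.23) and with replicates 1 and 2 alone (-0.23), and ranged from -0.23 to 0.75 with 1 library left out. Causes were not tested. The group-wise merging, the ranks among shared regions, the omission of Ccnd3 or of empty loci, equal lists for the cyclin comparison, replicates 1 and 2 alone and the centred block were chosen after seeing the data.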
